A study of Mus musculus with 6 samples.

Results

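The serum- and glucocorticoid-regulated kinases and the aldosterone to sodium channel pathway around them were examined in mouse atria, as 10 genes of 43432 in the deposited table. The genes were chosen by name: Sgk1, Sgk2, Sgk3, Nedd4, Nedd4l, Scnn1a, Nr3c2, Hsd11b2, Ndrg1 and Ndrg2. Each name matched 1 gene when case was ignored, since the table writes gene names in capitals. Of the 10 genes, 8 had a mean normalized count of at least 10 and were tested, and Sgk2 and Hsd11b2 were too low to test.

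RNA of the right and left atria was sequenced from 3 obese samples (C57/Bl6J mice on a high-fat diet, HFD) and 3 lean samples (the same strain on control chow). All mice were wild type, started their diet at 6 weeks of age and stayed on it for 10 weeks. The labels do not say whether a sample is 1 mouse or pooled tissue, nor give sex, so p-values measure the spread between these samples. The labels contradict themselves on diet in each of the 6 samples, the treatment entry naming the other diet than the title. The titles match the columns of the table and were followed, so every direction given here rests on them.

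In salt-transporting epithelia, aldosterone binds the mineralocorticoid receptor (Nr3c2), which raises transcription of Sgk1. The kinase phosphorylates the ubiquitin ligase NEDD4-2 (Nedd4l), which then binds the epithelial sodium channel (Scnn1a with Scnn1b and Scnn1g) less well, so that more channel stays at the cell surface. Cortisol and corticosterone also bind the receptor, and the enzyme encoded by Hsd11b2 inactivates them in aldosterone target cells. In heart muscle SGK1 is known to act on ion channels, and phosphorylated NDRG1 is widely used as a readout of its activity. Transcript levels do not report phosphorylation of any of these proteins.

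Sgk1 is also a classical corticosteroid-induced gene, so the sequences before its annotated starts were read from RefSeq (GRCm38.p6) and searched for the consensus element that corticosteroid receptors bind, which is AGAACA, then any 3 bases, then TGTTCT and reads the same on both strands, and for its 6-base part AGAACA on either strand. Each full element holds AGAACA on both strands, so the searches overlap. RefSeq windows of 300 bases, 250 before and 50 after a start, were read for 4 of the 10 genes, and 6 of these 12 windows belong to Sgk1. The full element was in 3 of 32851 windows (0.00913%), and 1 of the 3 was a window of Sgk1. The shorter part was in 19.0% of windows. Of the 6 windows of Sgk1, 3 held the shorter part. Of the 6 windows of Nedd4, Nr3c2 and Ndrg2, 1 did. The 250 bases before the Sgk1 start at 21993890 (plus strand, chr10:21993640-21993889) hold the full element, and those before the start at 21994666 (chr10:21994416-21994665) hold neither motif; both are shown because they lie before neighbouring starts. Capitals mark AGAACA or its reverse complement TGTTCT.
Sgk1 start at 21993890: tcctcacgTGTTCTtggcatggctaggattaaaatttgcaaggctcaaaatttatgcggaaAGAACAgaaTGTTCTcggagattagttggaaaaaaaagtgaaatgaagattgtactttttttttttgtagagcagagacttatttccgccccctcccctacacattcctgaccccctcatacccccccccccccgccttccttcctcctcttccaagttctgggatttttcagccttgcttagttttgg
Sgk1 start at 21994666: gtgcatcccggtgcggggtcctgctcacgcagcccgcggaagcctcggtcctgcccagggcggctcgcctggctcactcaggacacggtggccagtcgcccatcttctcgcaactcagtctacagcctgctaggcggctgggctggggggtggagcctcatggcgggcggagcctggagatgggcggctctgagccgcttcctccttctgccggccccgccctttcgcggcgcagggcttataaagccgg
The element itself, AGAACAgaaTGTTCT, spans chr10:21993701-21993715, overlaps 0 annotated Sgk1 exons (GENCODE M21), begins 189 bases before the first of these starts and 965 bases before the other. The match describes letters only, and counts per gene do not tell which start was used.

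Whole reads could be recovered from the normalized counts, which are reads divided by a size factor for each sample, and total 15874251 to 28971508 reads a sample, lean sample 2 being the deepest. Of 15275 genes tested, 114 (0.746%) passed a Benjamini-Hochberg adjusted p of 0.05 with limma, 74 higher (0.484%) and 40 lower (0.262%) in obese atria. The tissue label fits atrium in that all 6 atrial myocyte markers were detected, with summed normalized counts of 291229.8 to 523303 in obese and 451677 to 489103 in lean samples. The atrial light chain Myl7 measured 31186, 27168 and 58765 in obese samples 1 to 3 and 60190.2, 56346 and 58183 in the lean samples, so that obese samples 1 and 2 stood below the other 4. Of the markers of 12 other cell types, 2 genes were called, both higher in obese atria. These were the brown adipocyte genes Ucp1 and Cidea, of 3 brown adipocyte markers tested. Calls among these 3 fell to 0 without obese sample 1, lean sample 2 or lean sample 3 and without a variance trend. They fell to 1 in edgeR, with at least 10 in every sample, and when any other sample was left out. They rose to 3 in DESeq2 and with the replicate number as a block. Lean sample 2 stood highest for the ventricular light chain Myl2 (8176, against 2289.9 to 3469.95 in the others). In whole atria, fewer cells of a type and less RNA per cell cannot be told apart.

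Sgk1 was 1.22-fold higher in obese atria, but it did not pass the adjusted threshold. It was the only one of the 10 genes whose groups did not overlap, against 18.0% of all genes tested (8.86% with obese above). Of the 8 tested genes 0 were called, against 0.746% of all genes tested. An unadjusted p under 0.05 in limma was found for 1 of the 8 (Sgk1), against 12.2% of all genes tested (6.66% higher and 5.55% lower). The log2 differences of the 8 genes ran from -0.35 (Nr3c2) to 0.30 (Sgk3) with a median of 0.13, beside 0.00 over all genes tested, and 5 were higher and 3 lower in obese atria.

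**Figure D1:**
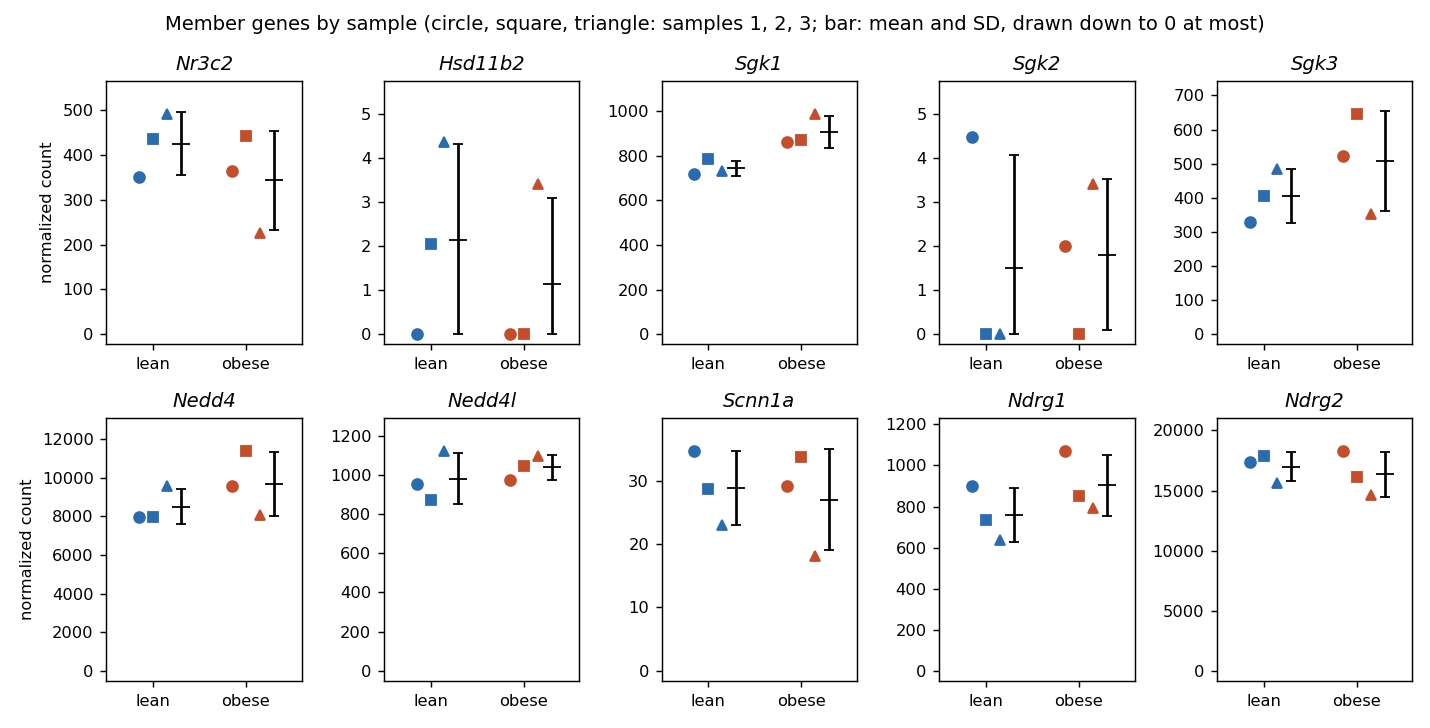
Normalized count (y axis, starting near 0) of each of the 10 genes in the 3 lean (blue) and 3 obese (red) samples; black bars give the mean and SD, drawn down to 0 at most. The obese samples lie above all lean samples for Sgk1 only, and Sgk2 and Hsd11b2 stay below 5.

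Nr3c2 encodes the mineralocorticoid receptor (chr8:76899442-77245012, GRCm38). Its normalized counts were 364, 443 and 225 in obese samples 1 to 3 and 350.5, 435 and 492 in lean samples 1 to 3. The groups overlapped, and obese sample 3 was the lowest of the 6. The log2 difference was -0.35 (SE 0.24, 95% interval -0.87 to 0.17, limma adjusted p = 0.609), and it ran from -0.56 without obese sample 2 to -0.07 without obese sample 3. The glucocorticoid receptor gene Nr3c1, which binds the same hormones, differed by -0.00 (95% interval -0.30 to 0.29), and its level per kb of exon was 2.39 to 4.81 times that of Nr3c2 in the 6 samples. The highest of these ratios was that of obese sample 3.

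Hsd11b2, the enzyme that shields the receptor from corticosterone, was barely detected (chr8:105518746-105523984). It had 0, 0 and 3 reads in obese samples 1 to 3 and 0, 3 and 4 reads in lean samples 1 to 3, 10 reads in all. The detection limit was set at 3 reads, or 2.05 to 3.41 normalized counts depending on the sample. The 95% counting interval for a count of 0 reaches 3.69 reads. Such limits and intervals cover counting error only. Both groups were at or near the limit of 3 reads, so no fold is given. Hsd11b1, which works in the opposite direction and regenerates active hormone, had a mean normalized count of 222 ± 29.9 in the obese group and 196 ± 22.8 in the lean group (SD, n = 3). Its log2 difference was 0.17 (95% interval -0.20 to 0.55, limma adjusted p = 0.739).

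Sgk1 itself spans chr10:21882184-21999903 on the plus strand, with 11 distinct transcript starts in GENCODE M21. Its normalized counts were 864, 871 and 988 in obese samples 1 to 3 and 719, 784 and 730.1 in lean samples 1 to 3. The lowest obese sample lay 10.2% above the highest lean sample; groups without overlap were found for 18.0% of all genes tested, with obese above for 8.86%. The means were 908 ± 69.8 and 744 ± 35.0 (SD, n = 3 each), a log2 difference of 0.28 (SE 0.12, 95% interval 0.03 to 0.54). In fold, the interval ran from 1.02 to 1.45. The limma p was 0.0334 unadjusted and 0.357 after Benjamini-Hochberg adjustment, and the two-sided exact permutation test gave p = 0.1, the smallest that 3 against 3 samples allow.

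Of all genes tested, 32.9% differed by at least as much as Sgk1 in either direction. Sgk1 rested on 642 to 1146 reads a sample, and counting error alone gave 95% intervals of 807 to 924 for obese sample 1 and 739.5 to 831 for lean sample 2, the nearest samples of the 2 groups, which overlap. The difference stayed between 0.22 and 0.32 in all 16 alternatives, with adjusted p from 0.342 to 0.615. The unadjusted p was under 0.05 in 9 of the 16, with a range of 0.0304 to 0.0912 in limma, edgeR and DESeq2. The settings above 0.05 included those without obese sample 3 and those without any 1 of the lean samples. Obese sample 3 had the highest Sgk1 and, of the obese samples, the highest summed level of atrial myocyte markers; without it the difference was 0.22. Of the 6 markers, 5 were lower in obese atria, with a median log2 difference of -0.42. Of the 6, 3 had an unadjusted p under 0.05, all lower, beside 5.55% of all genes tested, and 0 were called in limma. Without obese sample 3 the median was -0.63 and 2 were called, both lower, and DESeq2 called 1. Both settings also called more of all genes tested than the main fit did. The part of these markers in the Sgk1 result was not tested.

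Sgk3, a kinase of the same family found on endosomes, had a log2 difference of like size with a wider spread (chr1:9798107-9900845). It measured 521, 646 and 353 in obese samples 1 to 3 and 328, 404 and 485 in lean samples 1 to 3. The groups overlapped, with obese sample 3 within the lean range. The log2 difference was 0.30 (SE 0.22, 95% interval -0.20 to 0.79, limma adjusted p = 0.649), ranging from 0.10 to 0.53 when 1 sample was left out; without obese sample 3 it was 0.53.

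Sgk2 (chr2:162987330-163014127) had 2, 0 and 3 reads in obese samples 1 to 3 and 4, 0 and 0 reads in lean samples 1 to 3. At 9 reads in all it sat at the detection limit in both groups. Sgk1 therefore made up most of the SGK transcript level per kb of exon: 82.6%, 79.7% and 88.7% in obese samples 1 to 3 and 85.8%, 85.0% and 81.5% in lean samples 1 to 3. These shares overlapped between the groups (exact permutation p = 1). With the length of the longest coding transcript in place of all exons, a choice added after the values were seen, the share was 62.2% to 77.1%.

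Nedd4 and Nedd4l encode the closely related ubiquitin ligases NEDD4 and NEDD4-2. Nedd4 (chr9:72662346-72749852) measured 9599.6, 11403 and 8087 in obese samples 1 to 3 and 7992, 7976 and 9569.5 in lean samples 1 to 3. Obese sample 3 lay within the lean range, and the log2 difference was 0.18 (SE 0.15, 95% interval -0.15 to 0.50, limma adjusted p = 0.681), falling to 0.06 without obese sample 2 and rising to 0.30 without obese sample 3. Nedd4l (chr18:64887756-65217826), whose product is the SGK1 substrate of the classical pathway, measured 973, 1045 and 1096 in obese samples 1 to 3 and 952, 869.9 and 1124 in lean samples 1 to 3. The highest value was a lean sample, and the log2 difference was 0.09 (SE 0.13, 95% interval -0.20 to 0.37, limma adjusted p = 0.840), which ran from 0.00 (without lean sample 2) to 0.19 (without lean sample 3) when 1 sample was left out. Nedd4 stood at 11.9 to 17.6 times the level of Nedd4l per kb of exon in the 6 samples.

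Scnn1a, the alpha subunit of the epithelial sodium channel, was low in every sample (chr6:125320659-125344943). It measured 29.1, 33.7 and 18.2 in obese samples 1 to 3 and 34.7, 28.7 and 23.0 in lean samples 1 to 3, from 16 to 42 reads a sample. The groups overlapped, and the log2 difference of -0.12 had a 95% interval of -0.97 to 0.74 (limma adjusted p = 0.942). In fold that interval ran from 0.51 to 1.68, so it holds both lower and higher obese levels. The difference turned positive when obese sample 3 (0.14) or lean sample 1 (0.02) was left out.

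The partner subunits of that channel were not detected or nearly so: Scnn1b had 1 read, in lean sample 1, and Scnn1g 0 reads in any sample. Of 5 epithelial markers, Epcam and Cdh1 measured at most 3.36 and 13.0, while the keratin genes Krt8, Krt18 and Krt19 were detected in every sample. These 3 had log2 differences of 0.74, 0.38 and 0.59; the groups overlapped for each, and 0 were called in limma. The 5 markers summed to 311 to 415 in obese and 203 to 353 in lean samples, and their part in the Scnn1a values was not tested.

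Ndrg1 and Ndrg2 encode N-myc downstream-regulated proteins that SGK1 phosphorylates. Ndrg1 (chr15:66929321-66969640) measured 1072, 849.5 and 791 in obese samples 1 to 3 and 902, 734 and 639 in lean samples 1 to 3. Lean sample 1 lay above obese samples 2 and 3, and the log2 difference was 0.25 (SE 0.16, 95% interval -0.10 to 0.61, limma adjusted p = 0.580); it ran from 0.13 without obese sample 1 to 0.39 without lean sample 1. Ndrg2 (chr14:51905271-51913488), the most abundant of the 10 genes, measured 18314, 16154 and 14602 in obese samples 1 to 3 and 17416, 17897 and 15639 in lean samples 1 to 3. Both the highest and the lowest value were obese samples, and the log2 difference was -0.06 (SE 0.13, 95% interval -0.35 to 0.23, limma adjusted p = 0.908), turning to 0.02 without obese sample 3.

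The ratio of these substrates did not overlap between the groups. Per kb of exon, Ndrg2 was 33.2, 36.9 and 35.9 times Ndrg1 in obese samples 1 to 3 and 37.5, 47.3 and 47.5 times in lean samples 1 to 3. The obese ratios all lay below the lean ones, by little for obese sample 2 and lean sample 1. The exact permutation p was 0.1, the smallest possible, and 0.8 after Benjamini-Hochberg adjustment over the 8 ratios and shares compared. The other family members Ndrg3 and Ndrg4 differed by 0.23 (95% interval -0.16 to 0.62) and -0.15 (95% interval -0.43 to 0.14) on the log2 scale, and neither was called in limma.

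**Figure D2:**
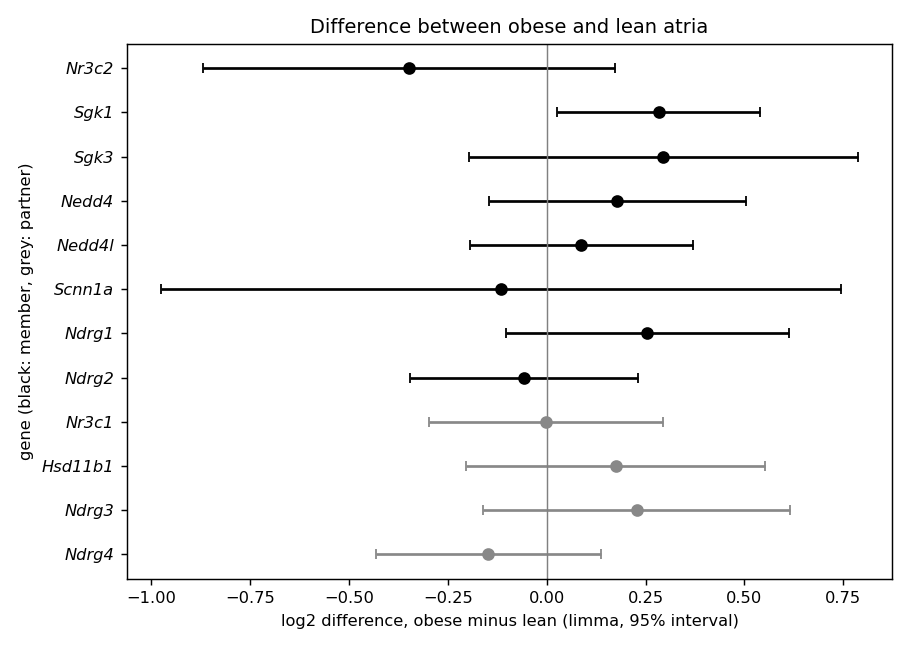
Log2 difference, obese minus lean (x axis), with its 95% limma interval for the 8 tested genes of the set (black) and 4 related genes (grey). The interval of Sgk1, 0.03 to 0.54, is the only one that does not include 0, before any adjustment for the number of genes tested.

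Divided by exon length, the 10 genes spanned a wide range of levels. Ndrg2 stood at 4907 ± 424 normalized counts per kb (SD over the 6 samples), Nedd4 at 829.7 ± 124, Sgk1 at 168 ± 20.8, Ndrg1 at 126 ± 22.6, Nr3c2 at 59.4 ± 14.6, Nedd4l at 57.2 ± 5.43, Sgk3 at 31.9 ± 8.31 and Scnn1a at 6.75 ± 1.53. Hsd11b2 and Sgk2 followed at 0.891 and 0.483. Sgk1 lay at percentile 73.7 of the genes tested for level per kb, Ndrg2 at 99.1 and Scnn1a at 8.49. In this order 3 pairs of neighbours were not separated by the spread: the ranges of Sgk1 and Ndrg1 overlapped, although Sgk1 was higher in 6 of 6 samples, Nr3c2 was above Nedd4l in 5 of 6, and Hsd11b2 above Sgk2 in 3 of 6. With the longest coding transcript as the length, Ndrg1 came before Sgk1 and Nr3c2 fell below Sgk3.

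**Figure D3:**
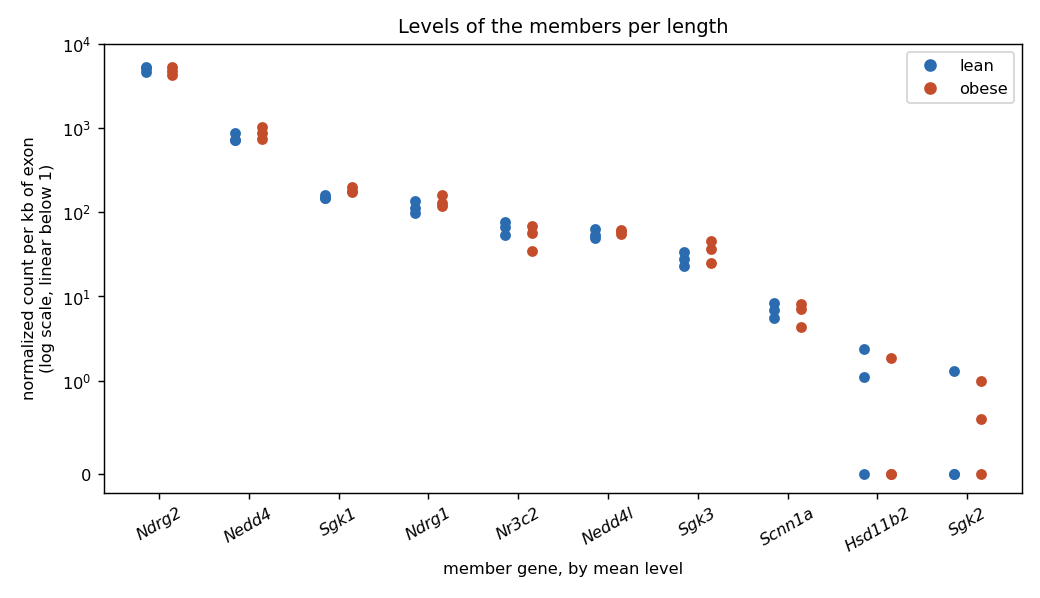
Normalized count per kb of exon (y axis, log scale, linear below 1) of the 10 genes in lean (blue) and obese (red) samples, ordered by mean. Levels run from 4907 for Ndrg2 to 0.483 for Sgk2, and the points of Sgk1 and Ndrg1 overlap.

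No single pattern across the samples was shared by all 8 tested genes. Obese sample 3 was the lowest obese sample for 6 of them and the highest for Sgk1 and Nedd4l. Its share of mitochondrial reads was 19.5%, the lowest of the 6 samples. Each gene's deviation from its own mean on the log2 scale was compared with that of Sgk1 by the root mean square of the differences over the 6 samples, a description of likeness with no test. Among the members Nedd4l was nearest (0.172, rank 2055 of 10830 genes with a mean of at least 100), and Nr3c2 farthest (0.490, rank 10289).

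The 5 genes nearest to Sgk1 were the glycyl-tRNA synthetase Gars (0.0305), the transcription factor Btaf1 (0.0331), the volume-regulated anion channel subunit Lrrc8a (0.0354), the UDP-glucose dehydrogenase Ugdh (0.0400) and Prdm4 (0.0463), a zinc finger protein. Gars, for example, measured 1369, 1316 and 1486 in obese samples 1 to 3 and 1109.6, 1164 and 1106 in lean samples 1 to 3. All 5 had their highest value in obese sample 3, as Sgk1 did, a likeness that follows from how they were chosen. None was called in limma.

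**Figure D4:**
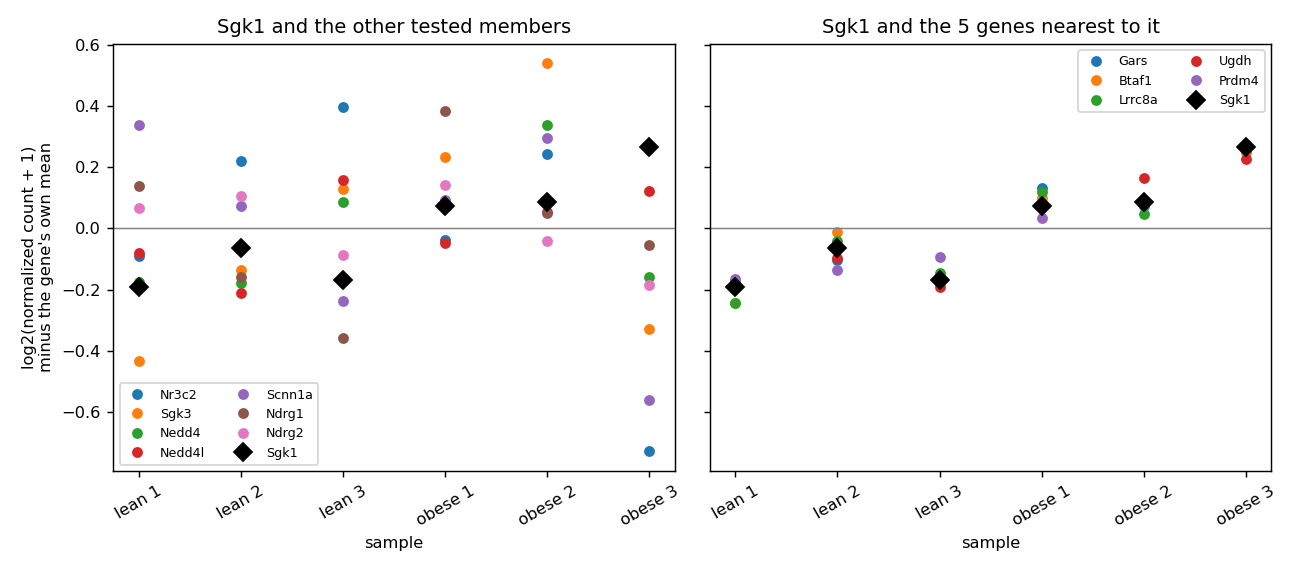
Deviation of log2(normalized count + 1) from each gene's own mean (y axis) by sample (x axis), for Sgk1 (black diamonds) with the 7 other tested genes of the set (left) and with the 5 genes nearest to it (right). In obese sample 3 Sgk1 lies above all 7 others of the set, and the 5 nearest genes, chosen for their likeness, lie close to it in every sample.

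The genes around the pathway were counted by lists of known role, chosen with earlier results of these data known. Their shares therefore describe the lists and are no independent test. Over 7 such lists, beside the 10 genes themselves, 95 of 108 distinct genes were tested, 2 were called (2.11%), both higher, and 24 (25.3%) had an unadjusted limma p under 0.05; the median log2 difference was 0.11. Over all genes tested 0.746% were called, 12.2% had such an unadjusted p, and 6.66% had it and were higher in obese atria. Both called genes were in the list of corticosteroid-induced genes. In that list all 12 were tested, 2 were called higher and 0 lower, 8 had an unadjusted p under 0.05, all higher, and the median was 0.53. In 7 of the 12 all obese samples lay above all lean samples, as in 8.86% of all genes tested.

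The called genes were the metal-binding metallothioneins Mt2 and Mt1, which also respond to metals and oxidative stress. Mt2 measured 1075, 1061 and 722 in obese samples 1 to 3 and 171, 137 and 115 in lean samples 1 to 3, a log2 difference of 2.74 (limma adjusted p = 0.000268). Mt1 differed by 1.44 (limma adjusted p = 0.0234), and was no longer called without obese sample 1 (1.24), obese sample 2 (1.42), lean sample 2 (1.43) or lean sample 3 (1.26). The chaperone gene Fkbp5, a receptor-bound feedback regulator named here after its values were seen, measured 1380.3, 1328 and 613 in obese samples 1 to 3 and 441, 408 and 277 in lean samples 1 to 3; its adjusted limma p was 0.0509. The number called in this list ran from 0 (limma without a variance trend) to 6 (DESeq2), and was 5 without obese sample 3. Among all genes tested, none was called without a variance trend. More of all genes were called in DESeq2 and without obese sample 3 than in the main fit. The clock output gene Dbp fell by 1.46 on the log2 scale in the same samples (limma adjusted p = 0.00937), a call lost without lean sample 2 or 3. Of 7 clock genes grouped with Dbp, 4 had an unadjusted limma p under 0.05, all lower, beside 5.55% of all genes tested. Of 4 grouped with Bmal1, 3 had one, all higher, beside 6.66%. The labels do not give the time of day of collection, and the part of the clock in these values was not tested.

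Among corticosteroid receptors and steroid handling, 7 of 9 other genes were tested and 0 were called. For 2 of the 7 the unadjusted limma p was under 0.05, both higher, beside 6.66% of all genes tested. These were Hsp90aa1, a chaperone of the receptors, by 0.90 (limma adjusted p = 0.139), and Ptges3, its co-chaperone, by 0.27 (limma adjusted p = 0.365). Without obese sample 3 the Hsp90aa1 difference was 0.56. The last enzymes of corticosterone and aldosterone synthesis, Cyp11b1 and Cyp11b2, had 0 counts in all 6 samples. The median of this list was 0.27.

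Upstream kinases and adaptors that activate SGK1 had all 10 genes tested, 0 called and a median of 0.11. Pdpk1, the kinase PDK1 that phosphorylates the activation loop of SGK1, differed by 0.42 (limma adjusted p = 0.318), and Deptor, an inhibitor bound to mTOR, by 0.44 (limma adjusted p = 0.430).

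Of the 21 NEDD4 family ligases, adaptors and 14-3-3 proteins, 20 were tested and 0 were called, with a median of 0.07. The arrestin-domain adaptors Arrdc2 and Arrdc3, which recruit such ligases, had the smallest p, with log2 differences of 1.28 (limma adjusted p = 0.115) and 0.43 (limma adjusted p = 0.304). Arrdc2 was called in DESeq2 (adjusted p = 0.00157) and in limma without obese sample 3 (1.66, adjusted p = 0.0106).

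Among the other genes of aldosterone-regulated sodium reabsorption, 26 of 34 were tested, 0 were called and the median was 0.08. The sodium pump beta subunit Atp1b2 measured 534, 439.5 and 453 in obese samples 1 to 3 and 839.8, 682 and 754 in lean samples 1 to 3. All obese samples lay below all lean samples, as for 9.17% of genes tested, with a log2 difference of -0.67 (95% interval -0.97 to -0.37, limma adjusted p = 0.0571). It was called in DESeq2 and under both other filters on low values. The scaffold gene Slc9a3r2 differed by 0.58 (limma adjusted p = 0.161) and was called in DESeq2 (adjusted p = 0.0429).

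Among channels and transporters on which SGK1 acts, 11 of 13 were tested, 0 were called and the median was 0.01. The smallest p were those of 2 potassium channel genes, Kcnh2 with a log2 difference of -0.34 (limma adjusted p = 0.250) and Kcnq1 with -0.28 (limma adjusted p = 0.346). In each all obese samples lay below all lean samples, as in 9.17% of all genes tested. The potassium channel gene Kcna5, named here after its values were seen, differed by 0.37 (limma adjusted p = 0.562), with overlapping groups. All 11 other SGK substrates and NDRG genes were tested, 0 were called and the median was 0.11. Chuk, a kinase of the NF-kappa-B pathway, differed by 0.39 (limma adjusted p = 0.292), and Wnk4, a kinase that regulates salt transporters, by -0.44 (limma adjusted p = 0.323).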

How the data were processed

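Atrial RNA of 3 obese and 3 lean samples was sequenced from a strand-marking library kit as short single-end reads. The authors checked them with FastQC, mapped them with STAR to the GRCm38 genome, used Salmon to count the uniquely placed ones per gene, and scaled the samples with DESeq2; the tool versions and the strand setting of the counting are not given in the sources used here. The values are a signal deposited by the authors as counts divided by size factors, on 43432 gene rows of GRCm38 plus 1 row without a gene, which holds 0 reads. The columns of the authors' own comparison (fold changes, p-values) were not used. Dividing by what 1 read is worth gave whole reads for 100% of values (tolerance 0.01 of a read). Limma 3.58.1 in R 4.3.3 was fitted with a mean-variance trend on log2(normalized count + 1), without covariates, on genes with a mean of at least 10, with Benjamini-Hochberg adjustment over all of them; fold changes are on that scale and understate low genes. Single values were compared with exact permutation tests (scipy 1.17.1).

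The alternatives were quantile normalization, no trend, other filters, a pseudocount of 0.1, mitochondrial genes left out, a replicate block, edgeR 4.0.16 and DESeq2 1.42.0 on the recovered reads, and each sample left out. On those reads edgeR called 87 genes with TMM and DESeq2 470. The fits were tested on simulated counts with the same dispersion for every gene. Of 50 genes changed 1.25-fold limma recovered 2, of 50 changed 1.5-fold 21, and of 50 changed 2-fold 47. It made 8 false calls among 15278 genes. The absence of calls among the 8 tested genes, at differences as small as theirs, therefore does not show that they were unchanged. The 10 genes and all lists were chosen with earlier results of these data known. Named from each list were its genes past the adjusted threshold, at most 4, or else the 2 with the smallest p, and partners of the 10 genes. Exon lengths came from GENCODE M21, and windows before starts from RefSeq. Gene counts can share reads with overlapping genes: Nr3c2 overlaps Gm10649 on the other strand over 247 exonic bases, where Gm10649 had a mean of 0.876. Some genes of the lists are not reported here.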

Additional observations from a re-analysis of the deposited data

How the results depend on the processing

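None of the 8 tested members was called in any of the 16 alternatives, and with 1 sample left out at a time the Sgk1 difference ranged from 0.22 to 0.32. Over all genes the number called was 0 without a variance trend, where 1717 had an unadjusted p under 0.05 in limma, and 470 in DESeq2, and leaving out 1 sample gave 14 (without lean sample 2) to 318 (without obese sample 3); the cause was not tested. With 1 sample left out, Scnn1a ran from -0.29 to 0.14 and Ndrg2 from -0.14 to 0.021, both turning sign without obese sample 3 and Scnn1a also without lean sample 1 (0.025). Nr3c1 ran from -0.10 to 0.10. Whether the replicate numbers pair the samples cannot be told from these values. Deviations of same-numbered samples correlated by 0.116, -0.027 and -0.00386, and obese sample 2 correlated most with lean sample 3 (0.160). With the number as a block, 157 genes were called, 101 of them among the 114, with 0 members and a Sgk1 difference of 0.28 (limma adjusted p = 0.478); 5 corticosteroid-induced genes and Arrdc2 were called. Low read counts limit Scnn1a, Sgk2 and Hsd11b2. Groups of 3 samples were too small for a test of single outlying samples.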
